A study of Mus musculus with 5 samples.

Results

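The broadest autosomal H3K27me3 domains of mouse embryonic fibroblasts (MEFs) expressing H3.3 K27R were followed into cells expressing H3.3 K27M or human EZHIP. A domain was an enriched region of the K27R list on chromosomes 1 to 19 that spanned at least 100 kb, and 1310 of the 12845 regions of that list met the rule. The width in the K27R list chose the domains, so width and number are descriptions and not results. The K27M and EZHIP lists took no part in the choice.

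H3K27me3 was measured by crosslinked ChIP-Seq after digestion of chromatin with MNase and its solubilization by sonication. All cells were MEFs, fibroblasts grown from mouse embryos, and the parental cells carried floxed EED, the gene of a core PRC2 subunit. The 3 lists analysed here came from cells stably transduced by lentivirus with H3.3 K27R, H3.3 K27M or human EZHIP, with 1 library each, and 2 further libraries of the series, from the parental cells (Control) and from a single Cre-deleted clone (EEDnull), were not analysed here. With 1 library per group there was no replicate check, and no difference between the lists could be tested. The lists held positions of called peaks with no height, count or score, so sequencing depth is unknown, and an interval without a peak may still carry signal below the caller's threshold. All 95% intervals given here are exact binomial or order-statistic intervals that cover counting error only.

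PRC2 trimethylates lysine 27 of histone H3, binds its own product through EED and is stimulated by it, and in this way spreads the mark away from the sites where it is recruited. In mammals those sites are largely CpG islands, stretches rich in the dinucleotide CG that lie at many promoters, above all those of silent developmental regulators. H3 K27M, the oncohistone of diffuse midline glioma, and EZHIP, expressed in PFA ependymoma, both inhibit PRC2, while H3.3 K27R changes the same residue to arginine and served here as the reference. In the text below, a K27M peak or an EZHIP peak is an H3K27me3 peak called in cells expressing that protein, and a domain keeps a peak when the 2 intervals share at least 1 bp.

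The sequence content of the domains is shown by 5 windows of 200 bp in the mm9 genome, given 5′ to 3′ on the plus strand with every CG in capitals. They are shown because CpG islands were more frequent in the domains that kept peaks than in those that did not, as described further on. The first set comes from 2 of the 3 widest domains that held a K27M peak, an EZHIP peak and an island in the shared part of both peaks, and each is the window with the most CG in that shared part. In the second set, from the 3 widest domains without any residual peak, each window has the most CG in its whole domain. Windows touching an annotated UTR were passed over, and since windows were picked by CG number, that number is not a finding. Labels name genes and introns of the annotation used, and a gene or exon missing from it is not shown.
Kept, chr8:12397159-12397358, intron of Gm5607: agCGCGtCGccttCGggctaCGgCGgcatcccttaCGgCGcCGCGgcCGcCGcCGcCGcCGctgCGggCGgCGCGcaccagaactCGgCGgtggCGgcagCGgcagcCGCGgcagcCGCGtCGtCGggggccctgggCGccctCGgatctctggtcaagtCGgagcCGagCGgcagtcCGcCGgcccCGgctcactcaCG
Kept, chr6:53768230-53768429, exon overlap in Tril: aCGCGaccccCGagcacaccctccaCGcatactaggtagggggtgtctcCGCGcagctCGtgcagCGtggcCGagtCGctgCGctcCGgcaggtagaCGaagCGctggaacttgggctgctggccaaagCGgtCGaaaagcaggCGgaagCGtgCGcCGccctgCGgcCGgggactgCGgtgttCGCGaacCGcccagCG
No residual peak, chr2:153651784-153651983, exon overlap in Gm14494: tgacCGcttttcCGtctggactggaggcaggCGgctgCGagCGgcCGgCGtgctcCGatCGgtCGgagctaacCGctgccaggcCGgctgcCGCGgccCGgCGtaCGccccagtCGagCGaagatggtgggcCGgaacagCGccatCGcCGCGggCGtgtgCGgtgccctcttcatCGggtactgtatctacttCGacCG
No residual peak, chr14:62911496-62911695, exon overlap in the region of Dleu7 and Rnaseh2b, 0.17 kb from the start of Rnaseh2b: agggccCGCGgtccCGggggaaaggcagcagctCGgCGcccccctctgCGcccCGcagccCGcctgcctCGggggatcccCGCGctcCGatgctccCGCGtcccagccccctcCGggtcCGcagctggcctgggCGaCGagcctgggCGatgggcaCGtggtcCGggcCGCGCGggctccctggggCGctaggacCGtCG
No residual peak, chr13:47739225-47739424, intergenic, outside any island: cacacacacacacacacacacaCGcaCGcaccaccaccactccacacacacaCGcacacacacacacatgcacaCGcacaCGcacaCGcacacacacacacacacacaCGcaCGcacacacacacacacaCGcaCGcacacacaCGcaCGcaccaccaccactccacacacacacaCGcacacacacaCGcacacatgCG
These windows hold 38 and 27 CG in the kept set and 29, 27 and 15 in the set without peaks. The sets were searched over unlike lengths, so these numbers are not compared. The chromosome 2 and chromosome 14 windows lay in islands, and neither list had a peak anywhere in their domains. The chromosome 13 window was a CA repeat, the CG-richest stretch of a domain with no protein-coding gene start.

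The 1310 domains spanned 260.6 Mb, which was 10.5% of the autosomes and 52.4% of the autosomal length in K27R regions. Their median width was 166.5 kb (quartiles 124.6 and 232.6 kb), and the widest reached 815.4 kb. At the threshold, the 3 narrowest domains were 100 kb wide, and the 3 widest regions left out were 99.8 kb wide. The former held Sfi1 (chr11:3000201-3100200, 2 K27M and 2 EZHIP peaks), Rasgef1c (chr11:49703201-49803200, 3 and 4 peaks) and Tbx1 with Gp1bb and Sept5 (chr16:18567401-18667400, 1 and 1 peak). Those left out were chr10:116664201-116764000 with the lysozyme genes Lyz1 and Lyz2 (1 and 2 peaks), chr12:104678001-104777800 (0 and 2 peaks) and chr13:73472801-73572600 (0 and 1 peak).

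Domains contained the 5′ ends of 2720 protein-coding genes, counted by gene identifier, which was 12.7% of the 21418 autosomal ones. Of the domains, 1014 held at least 1 such end, 413 held exactly 1, 20 held more than 10 and 296 held none. They also held 2975 CpG islands, and 323 domains held no island. Islands were about as frequent as elsewhere, with 1.14 per 100 kb in the domains and 1.04 per 100 kb over the autosomes. Median G+C was 44.4% (95% interval 44.1% to 44.6%), beside 41.9% for the autosomes. As a check of the labelled cell type, none of the 18 fibroblast and mesenchyme marker genes looked up had its 5′ end in a domain, and Pdgfra was the 1 of them that lay in any K27R region. Among 26 markers of other cell types, 7 started in a domain. They were the muscle gene Myod1, the neuronal genes Neurod1 and Rbfox3, the blood gene Tal1 and the liver genes Alb, Afp and Hnf4a. In any K27R region lay 14 of the 26, beside 6041 of the 21418 autosomal protein-coding genes. The other markers lay in none, such as the muscle genes Myog and Myf5, the neuronal gene Tubb3 and the blood genes Ptprc and Cd34.

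Most domains kept a remnant of the mark in both inhibited lines. A K27M peak remained in 830 domains (63.4%, 95% interval 60.7% to 66.0%), and 17% of all autosomal K27R regions had one. An EZHIP peak remained in 921 domains (70.3%, 67.7% to 72.8%), against 17.8% of all autosomal K27R regions. Both were present in 779 domains (59.5%, 56.8% to 62.1%; 13.7% of all autosomal regions). A further 51 domains held K27M peaks alone (3.89%; 3.32% of all autosomal regions) and 142 held EZHIP peaks alone (10.8%; 4.11%). With residual peaks of at least 5 kb alone counted, the lead of EZHIP was gone, at 53.7% of domains for K27M and 52.7% for EZHIP. The remaining 338 domains (25.8%, 23.5% to 28.3%; 78.9% of all autosomal regions) had no residual peak in either list.

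A wide region has more room to overlap a peak, so the next class down gives the nearer comparison. Of 1390 autosomal K27R regions of 50 to under 100 kb, 466 held a K27M peak (33.5%, 31.0% to 36.1%) and 518 an EZHIP peak (37.3%, 34.7% to 39.9%). Cover, the share of length lying in peaks, takes width into account. K27M peaks covered 11.6% of the length of the domains, 6.78% of the 50 to 100 kb class and 5.12% of all autosomal K27R regions under 100 kb. EZHIP peaks covered 10.1%, 5.57% and 4.05% of the same 3 sets. The difference between width classes thus also held per base. Of the whole residual signal on autosomes, the domains held 71.1% of the length of K27M peaks and 73.3% of that of EZHIP peaks.

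On the X chromosome, which was left out of the rule, K27R regions of at least 100 kb differed between the lists in cover. Their widths were not matched to those of the autosomal domains. Of 134 such regions, 43 held a K27M peak (32.1%, 24.3% to 40.7%) and 29 an EZHIP peak (21.6%, 15.0% to 29.6%). Cover of their pooled length was 12.2% for K27M and 0.609% for EZHIP. The pooled value weighs long regions most, and 1 X region held 113 of the 376 K27M peaks. Per region, mean K27M cover was 4.49% (median 0%), below the 10.9% (median 3.57%) of the autosomal domains. For EZHIP the mean was 0.376% on the X chromosome and 9.47% in the autosomal domains.

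Domains that kept a peak mostly held few of them, and the EZHIP list had more in total. The domains contained 1936 K27M peaks, 58.0% of the 3338 on autosomes, and 3254 EZHIP peaks, 66.5% of 4890. Of these, 1921 and 3252 lay wholly within their domain, and no peak touched a second domain. Among domains holding a K27M peak, the median was 2 peaks (95% interval 1 to 2), the mean 2.33 and the most 13. For EZHIP the median was also 2 (2 to 2), the mean 3.53 and the most 27. At least 2 K27M peaks were found in 433 domains (33.1%; 4.69% of all autosomal K27R regions) and at least 2 EZHIP peaks in 602 (46.0%; 7.35%). At least 5 K27M peaks were found in 98 domains (7.48%; 0.819% of all autosomal regions) and at least 5 EZHIP peaks in 240 (18.3%; 2.03%).

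**Figure D1:**
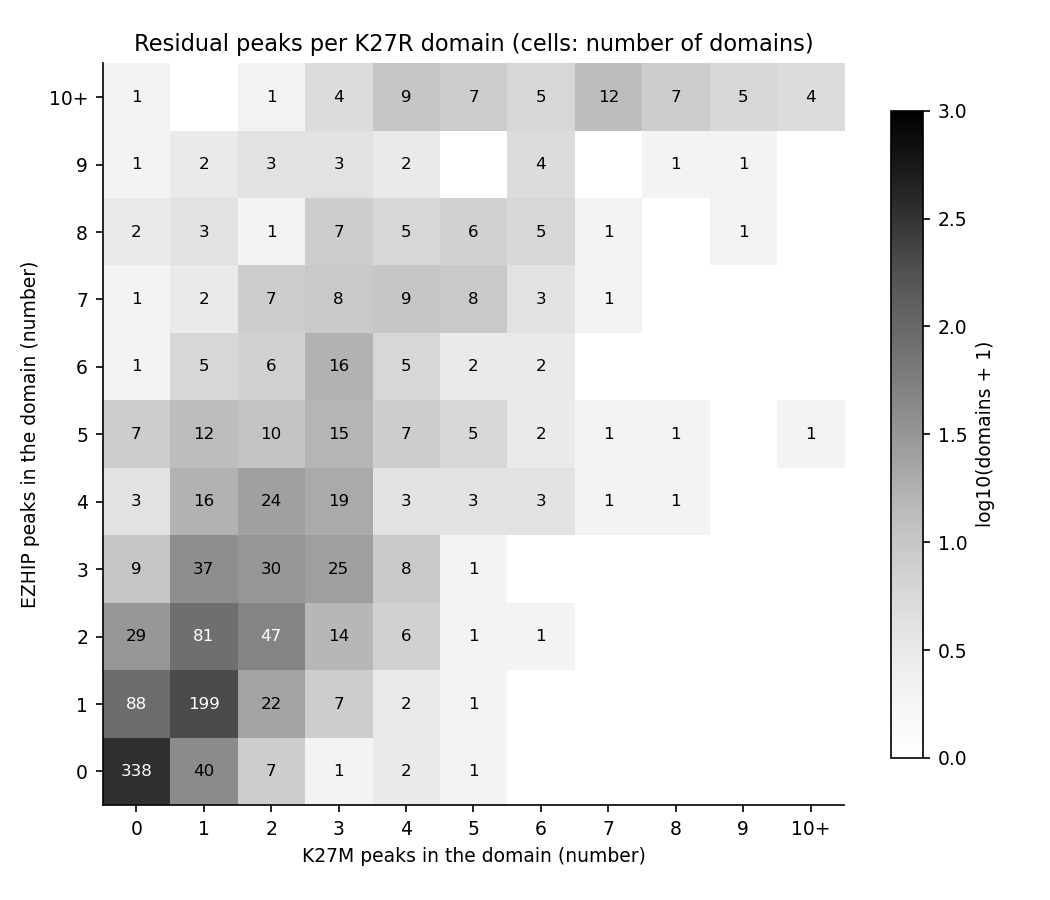
Number of K27M peaks (x axis) and of EZHIP peaks (y axis) in each of the 1310 K27R domains, with the number of domains printed in each cell and shown by the shade on a log10 scale. The 338 domains with no peak and the 199 with 1 peak of each kind are the most filled cells, and the counts spread above the diagonal, toward more EZHIP than K27M peaks.

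Within the 779 domains that held both, EZHIP peaks outnumbered K27M peaks in 419 (53.8%; 35.7% of all autosomal K27R regions holding both), the numbers were equal in 283 and K27M peaks were more numerous in 77. Length ran the other way. K27M peaks covered more of the domain in 496 of the 779 (63.7%), EZHIP peaks in 276 (35.4%), and cover was equal in 7. The K27M pieces were wider, with a median of 8.2 kb (7.6 to 8.8 kb) against 4.8 kb (4.6 to 5.0 kb) for EZHIP. An EZHIP list of more but narrower pieces and a K27M list of fewer but wider ones thus left similar totals, 26.4 Mb and 30.2 Mb.

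The number of pieces rested on how near neighbours were kept apart. Of 1106 gaps between neighbouring K27M peaks in a domain, 0 were under 5 kb, while 716 of 2333 EZHIP gaps (30.7%) were. The lists thus differed in how near to each other separate peaks were called. After neighbours up to 10 kb apart were joined in both lists, the domains held 1667 K27M and 2112 EZHIP peaks, and EZHIP peaks outnumbered K27M peaks in 262 of the 779 domains (33.6%), with equal numbers in 399. The surplus of EZHIP pieces was thus smaller with 1 joining distance for both lists, although EZHIP still led in more domains than K27M did (118). Of the K27M peaks in domains, 326 (16.8%) overlapped 2 or more EZHIP peaks, and 18 EZHIP peaks (0.553%) overlapped 2 or more K27M peaks.

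Little of a domain was left as a rule. In domains holding a K27M peak, the peaks covered a median of 9.52% of the domain (8.67% to 10.7%; quartiles 4.40% and 22.9%), and in those holding an EZHIP peak 7.21% (6.45% to 8.04%; quartiles 3.37% and 18.1%). The largest single piece measured a median of 14 kb for K27M and 8.8 kb for EZHIP. More than 50% of the domain was covered in 71 domains for K27M and 44 for EZHIP, and more than 75% in 16 and 3. Under 5% was covered in 229 of the domains holding K27M peaks (27.6%) and in 356 of those holding EZHIP peaks (38.7%).

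Both lists left the mark in much the same places. Of the 1936 K27M peaks in domains, 1546 (79.9%, 78% to 81.6%) overlapped an EZHIP peak, beside 67.4% of the K27M peaks outside domains. For EZHIP, 2069 of 3254 peaks in domains (63.6%, 61.9% to 65.2%) overlapped a K27M peak, beside 65.0% outside. Over the 1310 domains, the Spearman correlation was 0.77 between the numbers of peaks in the lists and 0.84 between the shares covered. Over the 779 holding both it was 0.70 and 0.81. These are descriptions over domains of the same libraries that differ in width, and the domains are not replicates.

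CpG islands went with the domains that kept a peak. Of the 987 domains with an island, 762 held a K27M peak (77.2%, 74.5% to 79.8%) and 814 an EZHIP peak (82.5%, 80.0% to 84.8%). Of the 323 without one, 68 held a K27M peak (21.1%, 16.7% to 25.9%) and 107 an EZHIP peak (33.1%, 28.0% to 38.6%). Width moved with islands (Spearman correlation 0.39 over 1310 domains), so the shares were also taken within width classes. From 100 to under 150 kb, a K27M peak was held by 70.7% of 338 domains with an island and 16.6% of 199 without. For EZHIP the shares there were 74.6% and 23.6%. From 200 to under 300 kb they were 81.0% and 30.8% for K27M and 89.7% and 56.4% for EZHIP, of 242 domains with and 39 without an island. In both of these classes the interval for island domains lay wholly above that for island-free ones, in either list. In the class of 300 kb and over, just 12 domains had no island, of which 4 held a K27M peak and 11 an EZHIP peak.

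**Figure D2:**
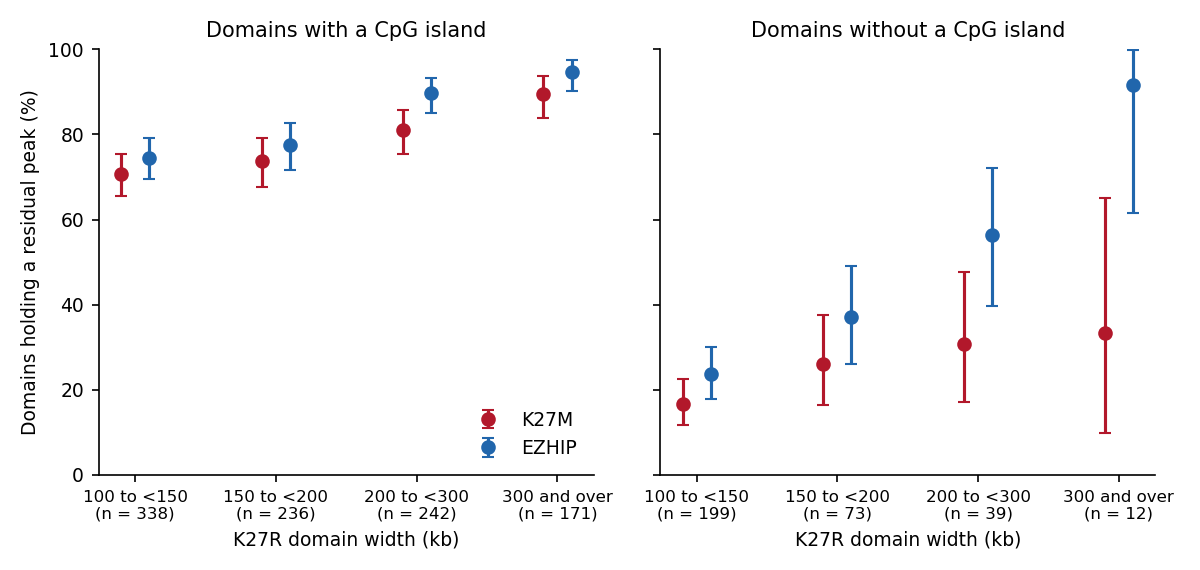
Share of K27R domains (y axis, percent) that held a K27M peak (red) or an EZHIP peak (blue), by domain width in kb (x axis), for domains with a CpG island (left) and without one (right). Bars are exact 95% intervals for counting error in 1 library per list, and in the 3 narrower classes the points on the left lie above those on the right.

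Domains were also grouped by gene starts. Where a domain held both an island and a protein-coding 5′ end, 686 of 870 (78.9%, 76.0% to 81.5%) had peaks in both lists. With an island and no gene start the count was 39 of 117 (33.3%, 24.9% to 42.6%). A gene start without an island gave 33 of 144 (22.9%, 16.3% to 30.7%), and neither feature 21 of 179 (11.7%, 7.41% to 17.4%). In this last class 129 domains (72.1%, 64.9% to 78.5%) had no peak in either list. The classes with 1 of the 2 features had overlapping intervals. Width was not held equal in these shares. Among island domains of 100 to under 150 kb, both peaks were held by 72.1% of 290 with a gene start (66.5% to 77.2%) and 22.9% of 48 without (12.03% to 37.31%). From 150 to under 200 kb the shares were 75.9% of 203 (69.4% to 81.6%) and 30.3% of 33 (15.6% to 48.7%).

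The 4 states of a domain differed in make-up. Domains with both peaks had a median width of 190.8 kb, a median G+C of 45.8% and a median of 2 islands and 2 genes. Domains with neither had 135.8 kb, 42.5% and medians of 0 islands and 0 genes. Per 100 kb, the medians were 1.18 islands and 0.894 genes in domains with both, and 0 and 0 in those with neither. The groups with 1 kind of peak lay between them in G+C, at 43.2% for K27M alone (139.8 kb wide) and 43.6% for EZHIP alone (171 kb wide). The highest CG number in any 200 bp window of a domain had a median of 27 (26 to 28) in domains with both, 18 with K27M alone, 17 with EZHIP alone and 14 (14 to 15) in domains with neither. The intervals of the outer groups were far apart, and those of the groups with 1 kind of peak overlapped each other. Width was not held equal for this maximum, which can rise with the number of windows in a domain.

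Over the pooled length of the domains, cover was higher nearer to islands. Bins of 200 bp less than 1 kb from an island were in a K27M peak for 56.3% of their length and in an EZHIP peak for 52.3%. From 2 to 5 kb cover was 37.7% and 30.8%, from 5 to 10 kb 23.1% and 16.9%, and from 10 to 20 kb 13.2% and 10.8%. More than 100 kb from an island it was 2.09% and 1.80%. Cover thus fell at each step in both lists. K27M cover stood above EZHIP cover in all classes but that of 50 to 100 kb (3.59% against 4.03%). Bins under 1 kb from an island came from 1001 domains and those beyond 100 kb from 535, so the fall can include differences between domains. With each domain divided into 5 equal segments, K27M cover was 9.78% and 9.28% in the outer segments and 12.5% to 13.5% in the inner ones. EZHIP cover was 9.21% and 8.69% against 10.5% to 11.7%, while the share of length in islands varied between 0.90% and 1.03%.

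**Figure D3:**
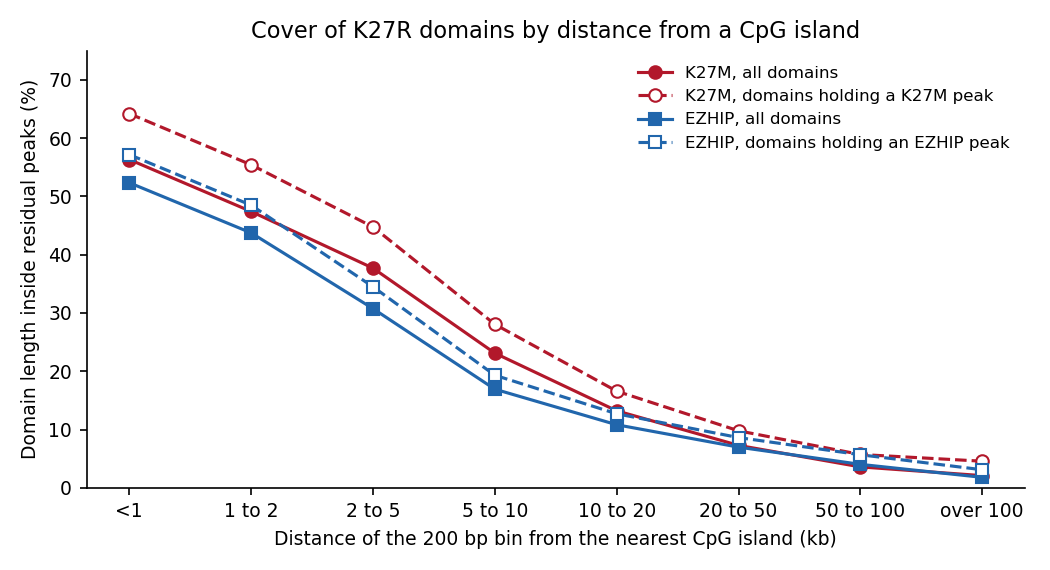
Share of domain length inside K27M peaks (red circles) and EZHIP peaks (blue squares), in percent (y axis), by the distance of each 200 bp bin from the nearest CpG island in kb (x axis, unequal classes). Filled symbols are all 1310 domains and open symbols the domains holding a peak of that list, and cover falls with distance in each, from 56.3% and 52.3% next to an island to 2.09% and 1.80% beyond 100 kb over all domains.

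Many pieces nevertheless lay away from islands. Of the K27M peaks in domains, 970 (50.1%, 47.9% to 52.4%) held an island, below the 68.9% of K27M peaks outside domains (58% of all autosomal K27M peaks). Of the EZHIP peaks, 1000 (30.7%, 29.1% to 32.3%) held one, beside 50.2% outside (37.3% of all autosomal EZHIP peaks). Neither an island nor a gene start was present in 886 K27M peaks (45.8%) and 2120 EZHIP peaks (65.2%). Pieces with an island were shared between lists more often than those without. A K27M peak was shared in 91.0% of cases with an island and 68.6% without, and an EZHIP peak in 93.0% and 50.5%.

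Viewed from the islands, 1628 of 2975 (54.7%, 52.9% to 56.5%) lay in a K27M peak and 1510 (50.8%, 48.9% to 52.6%) in an EZHIP peak. The share was higher at islands of at least 1000 bp, with 428 of 506 (84.6%) and 405 of 506 (80.0%). Islands holding a protein-coding 5′ end were in peaks at 68.0% and 65.5% of 910. An island in a domain was therefore no guarantee of a remnant, and 1261 (42.4%) lay in neither peak list.

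Of the 2720 genes with their 5′ end in a domain, 1001 (36.8%, 35.0% to 38.6%) had it in a K27M peak and 984 (36.2%, 34.4% to 38.0%) in an EZHIP peak. Over all autosomal protein-coding genes the shares were 8.94% and 7.96%, but just 6041 of these 21418 genes started in any K27R region. A nearer comparison is the 3321 genes with their 5′ end in a K27R region under 100 kb. Of these, 910 were in K27M and 717 in EZHIP peaks. Of the 2720 starts in domains, both peaks held 864, K27M alone 137, EZHIP alone 120 and neither 1599 (58.8%). The mark was usually split among neighbours. Of 601 domains with at least 2 gene starts, the K27M peaks took in all of them in 81, some in 322 and none in 198, and the EZHIP peaks all in 67, some in 331 and none in 203. A start within 500 bp of an island was in a K27M peak for 780 of 1159 genes (67.3%) and in an EZHIP peak for 744 (64.2%). For the 1561 other genes the shares were 14.2% and 15.4%.

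Starts of developmental transcription factor genes lay in residual peaks in most cases. The lists of gene families were drawn up with earlier results of these data known, and they are described by counts. For all genes in domains, the K27M and EZHIP shares were 36.8% and 36.2%. For those starting within 500 bp of an island they were 67.3% and 64.2%. Starts lay that near an island for 96.6% of the first homeobox list below, 81.4% of other homeobox genes and 82.6% of basic helix-loop-helix factors. The share was 100% for Sox and T-box genes, 93.3% for Forkhead, 85.7% for Gata and Zic and 78.6% for Hox genes. Of 29 Pax, Dlx, Irx, Nkx, LIM and sine oculis homeobox genes, 28 had their start in a K27M peak and 26 in an EZHIP peak. Among them were Pax6, a regulator of eye development, Nkx2-1, of lung and thyroid, and Lhx2, of the forebrain, all in both. Irx5 and Pax1 were in K27M peaks alone, and Irx2 was in neither.

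Of 43 other homeobox genes, 41 were in K27M and 38 in EZHIP peaks, including Otx2 and Pdx1 in both, and Pou6f1 in neither. Basic helix-loop-helix (bHLH) lineage factors gave 21 and 20 of 23, with the muscle factor Myod1, the neural factors Neurod1 and Neurog1 and the heart factors Hand1 and Hand2 in both. All 5 annotated Sox genes in domains (Sox7, Sox8, Sox13, Sox14, Sox21) had their start in both peaks. So did all 4 T-box genes (T, Tbx1, Tbx4, Tbx20) and all 7 Gata and Zic genes (such as Gata4 and Zic1) in domains. Forkhead genes were in K27M peaks for 14 of 15 and in EZHIP peaks for 10. Foxc2, Foxd2, Foxf1a and Foxo6 were the ones in K27M peaks alone, and Foxp4 was in neither. Where these families had genes in domains with 1 kind of peak, it was K27M, apart from the Hox clusters. Starts in K27R regions under 100 kb were also counted, for K27M and then EZHIP peaks. The first homeobox list gave 13 and 11 of 17 there, other homeobox genes 20 and 17 of 22, and bHLH factors 6 and 7 of 13. Sox genes gave 6 and 5 of 9, T-box genes 4 and 2 of 5, Gata and Zic genes 2 and 1 of 2, and Forkhead genes 6 and 3 of 6.

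The Hox clusters showed the pattern within single domains. Of 28 Hox genes in domains, 22 were in K27M and 22 in EZHIP peaks, and 20 were in both. The Hoxc domain (chr15:102557601-102926600, 369 kb) broke into 4 K27M and 6 EZHIP peaks covering 54.4% and 48.7%. Hoxc6 to Hoxc13 had their starts in both, and Hoxc4 and Hoxc5 in neither. In the Hoxb domain (chr11:95942201-96161400, 219.2 kb), 1 K27M peak of 154.6 kb covered 70.5% and 5 EZHIP peaks covered 56.4%. Hoxb8, Hoxb9 and Hoxb13 were in both, Hoxb6 and Hoxb7 in the K27M peak alone. The Hoxa domain (chr6:52166201-52362800, 196.6 kb) kept 2 K27M and 4 EZHIP peaks, with Hoxa9, Hoxa10, Hoxa11, Hoxa13 and Evx1 in both and the 5′ end of Hoxa7 in neither. The Hoxd domain (chr2:74417201-74656400, 239.2 kb) kept 3 and 6 peaks. Hoxd1 and Hoxd9 to Hoxd13 were in both, Hoxd3 and Hoxd8 in EZHIP peaks alone, and Hoxd4 and Lnp in neither.

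Potassium channel genes also kept the mark at most of their starts, and other lists of genes of excitable cells did so less often. Of 32 potassium channel genes, 29 were in K27M and 27 in EZHIP peaks, including Kcna1 and Kcnh2 in both, and Kcna10, Kcnj1 and Kcnn3 in neither. Starts of these channels lay within 500 bp of an island in 71.9% of cases. Neurotransmitter receptors were in K27M peaks for 18 of 29 and in EZHIP peaks for 19, with the adrenergic receptor genes Adra1a, Adra2a and Adra2b in both and Chrnb4, Drd2 and Glra1 in neither. Calcium and sodium channels gave 9 of 16 in each list. Signalling ligands and antagonists of the Wnt, Fgf, Bmp and Hedgehog pathways gave 12 and 13 of 20, with Wnt7a, Dkk1 and Ihh in both, Wif1 in EZHIP alone and Nog, Fgf1 and Bmp10 in neither.

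In other lists, more starts lay near an island than in a residual peak. Axon guidance and synaptic adhesion genes had 94.1% of 17 starts near an island, with 11 in both peaks, among them Slit1 and Robo3, and 6 in neither, such as Robo4 and Sema5a. Zfp zinc finger genes had 68.8% of 16 starts near an island, with 5 in K27M and 4 in EZHIP peaks. Solute carriers gave 26 and 30 of 63, including the transporters of dopamine and noradrenaline (Slc6a3, Slc6a2) in both. The kidney and liver transporters Slc22a6 and Slc10a1 were in neither.

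Starts in tandem families of genes used in differentiated tissues mostly lay outside the residual peaks. Olfactory receptors had 114 of 1081 starts in domains (10.5%, beside 12.7% of all autosomal protein-coding genes). These lay in 24 domains, and 9 were in K27M and 11 in EZHIP peaks. Cytochrome P450 genes gave 2 of 23 in each list, namely Cyp24a1 and Cyp4x1, and left out Cyp2d and Cyp4f genes. None of 15 defensins and none of 10 vomeronasal receptors was in either. Such families hold near-identical copies, whose reads may not be assigned with certainty. Keratins and keratin-associated proteins had 51 of 96 starts (53.1%) in 5 domains, with 5 in K27M and 12 in EZHIP peaks. Few starts of these families lay near an island, 1.75% for olfactory receptors, 4.35% for cytochrome P450 genes and 1.96% for keratins. The part of the islands in the difference between lists of genes was not tested.

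The remaining lists were small. Of 8 collagens, 3 were in each kind of peak (Col13a1, Col15a1, Col25a1), and of 6 Mmp and Adamts proteases 3 (Adamts2, Adamts8, Adamts15). Of 5 cadherins, 4 were in K27M and 3 in EZHIP peaks, and of 8 C-type lectins 1 and 0. The 2 serpins and the 3 ribosomal protein genes in domains were in neither, and no clustered protocadherin had its start in a domain. Of the 7 cell-type markers, Myod1, Neurod1, Rbfox3 and Tal1 were in both and Alb, Afp and Hnf4a in neither.

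**Figure D4:**
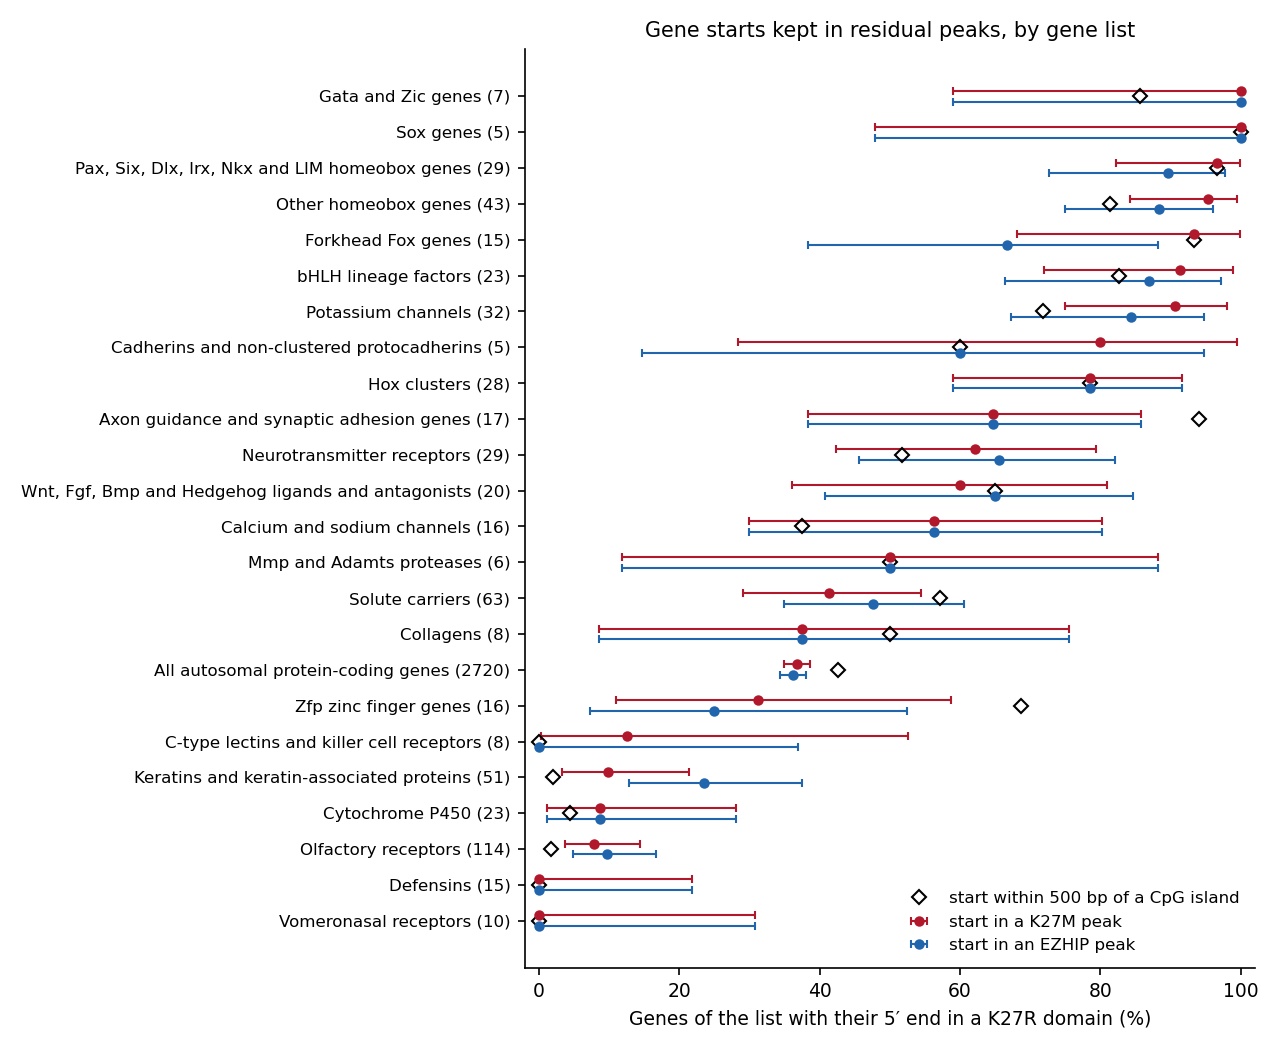
Share of genes (x axis, percent) whose 5′ end lay in a K27M peak (red) or an EZHIP peak (blue), among those with that end in a K27R domain, for each list with at least 5 such genes (number in brackets). Bars are exact 95% intervals for counting error, open diamonds give the share of starts within 500 bp of a CpG island, and transcription factor families lie near the right while tandem families lie near 0.

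The widest domain, chr9:44756001-45571400 (815.4 kb), ran from the T-cell receptor subunit genes Cd3g, Cd3d and Cd3e past the sodium channel subunits Scn2b and Scn4b to Il10ra and the adhesion gene Dscaml1. It held 10 K27M peaks covering 19.9% and 20 EZHIP peaks covering 15.0%, and joining at 10 kb left 9 and 8. All of these genes had their starts in both. Ube4a, Tmprss4 and Fxyd2 had theirs in neither. The second, chr8:11833801-12632600 (798.8 kb), held 6 and 16 peaks, with Gm5607 in both and Spaca7 in an EZHIP peak alone.

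The third, chr6:53663201-54450600 (787.4 kb), had the most K27M peaks of all and went against the general surplus of EZHIP pieces. Its 13 K27M peaks covered 18.8% and its 5 EZHIP peaks 4.11%. The starts of Tril, a Toll-like receptor accessory gene, of Chn2, Prr15 and Wipf3 were in both, and the 4 islands of the domain lay at or near these starts. Cpvl was in neither. Similarly, the domain of the homeobox genes Six3 and Six2 (chr17:85695401-86385000, 689.6 kb) held 8 K27M peaks covering 31.3% and 4 EZHIP peaks covering 15.1%, with both genes in both.

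Further domains among the 10 widest varied in what they kept. On chr5:106348801-107012400 (663.6 kb) 2 peaks of each kind remained, over 11.2% and 5.82%, with the start of the homeobox gene Barhl2 in both. On chr2:74734201-75445200 (711 kb), which held no protein-coding gene start, 1 K27M and 3 EZHIP peaks covered 0.985% and 1.32%. On chr8:112472801-113142200 (669.4 kb) 3 K27M and 12 EZHIP peaks covered 1.55% and 6.75%, with Calb2 in both, Hydin in EZHIP alone and the liver gene Tat in neither. The domain of Kcnk1, Slc35f3 and Pcnxl2 (chr8:128204801-128933600, 728.8 kb) held 6 and 8 peaks, and that of Raet1c and H60b (chr10:21731601-22402400, 670.8 kb) 7 and 12.

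EZHIP pieces were most numerous over the type II keratin cluster (chr15:101290401-101802600, 512.2 kb), where 27 EZHIP peaks covered 48.5% and 8 K27M peaks 18.5%. Joining at 10 kb left 12 and 8. Krt1, Krt73, Krt77 and Krt82 had their starts in both, Krt2, Krt75, Krt76, Krt78 and Krt84 in EZHIP peaks alone, and 11 genes, such as the basal keratin gene Krt5, in neither. Next was the domain from Rbfox3, the splicing factor known as NeuN, to Cbx8 and Cbx2, which encode Polycomb chromobox proteins (chr11:118316201-119001800, 685.6 kb), with 25 EZHIP peaks over 39.5% and 9 K27M peaks over 24.4%. Rbfox3 was in both and Cbx8 in K27M alone. Cbx2 and Engase were in neither, although 18 islands lay in the domain.

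A further domain of chromosome 15 (chr15:100396401-101019800, 623.4 kb) had 23 EZHIP and 10 K27M peaks, with Galnt6 and Smagp in both, Acvrl1 in EZHIP alone and Acvr1b and Pou6f1 in neither. On chr12:113262601-113783600 (521 kb) there were 22 and 9, with Kif26a and Tmem179 in both. The apolipoprotein L cluster (chr15:77243801-77554600, 310.8 kb) had 21 and 9, but 3 and 5 after joining. So 3 of the 5 domains with the most EZHIP peaks lay on chromosome 15, where 55 domains held 235 EZHIP and 86 K27M peaks, a ratio of 2.73. Over the other autosomes that ratio ran from 1.26 on chromosome 14 to 2.13 on chromosome 19. The share of domains with EZHIP peaks alone was 21.8% of 55 on chromosome 15 and 27.5% of 40 on chromosome 16, against 10.8% of all domains.

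Among domains with many K27M peaks, chr5:35378601-35896200 (517.6 kb) held 11 over 48.9%, beside 20 EZHIP peaks over 34.7%. The adrenergic receptor gene Adra2c, the homeobox gene Hmx1, Dok7 and Cpz were in both, and Hgfac and Lrpap1 in neither. The domain of Neurog3, the endocrine pancreas factor, and Col13a1 (chr10:61288001-61652200, 364.2 kb) held 10 K27M peaks over 55.6% and 15 EZHIP peaks over 27%, with both genes in both.

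**Figure D5:**
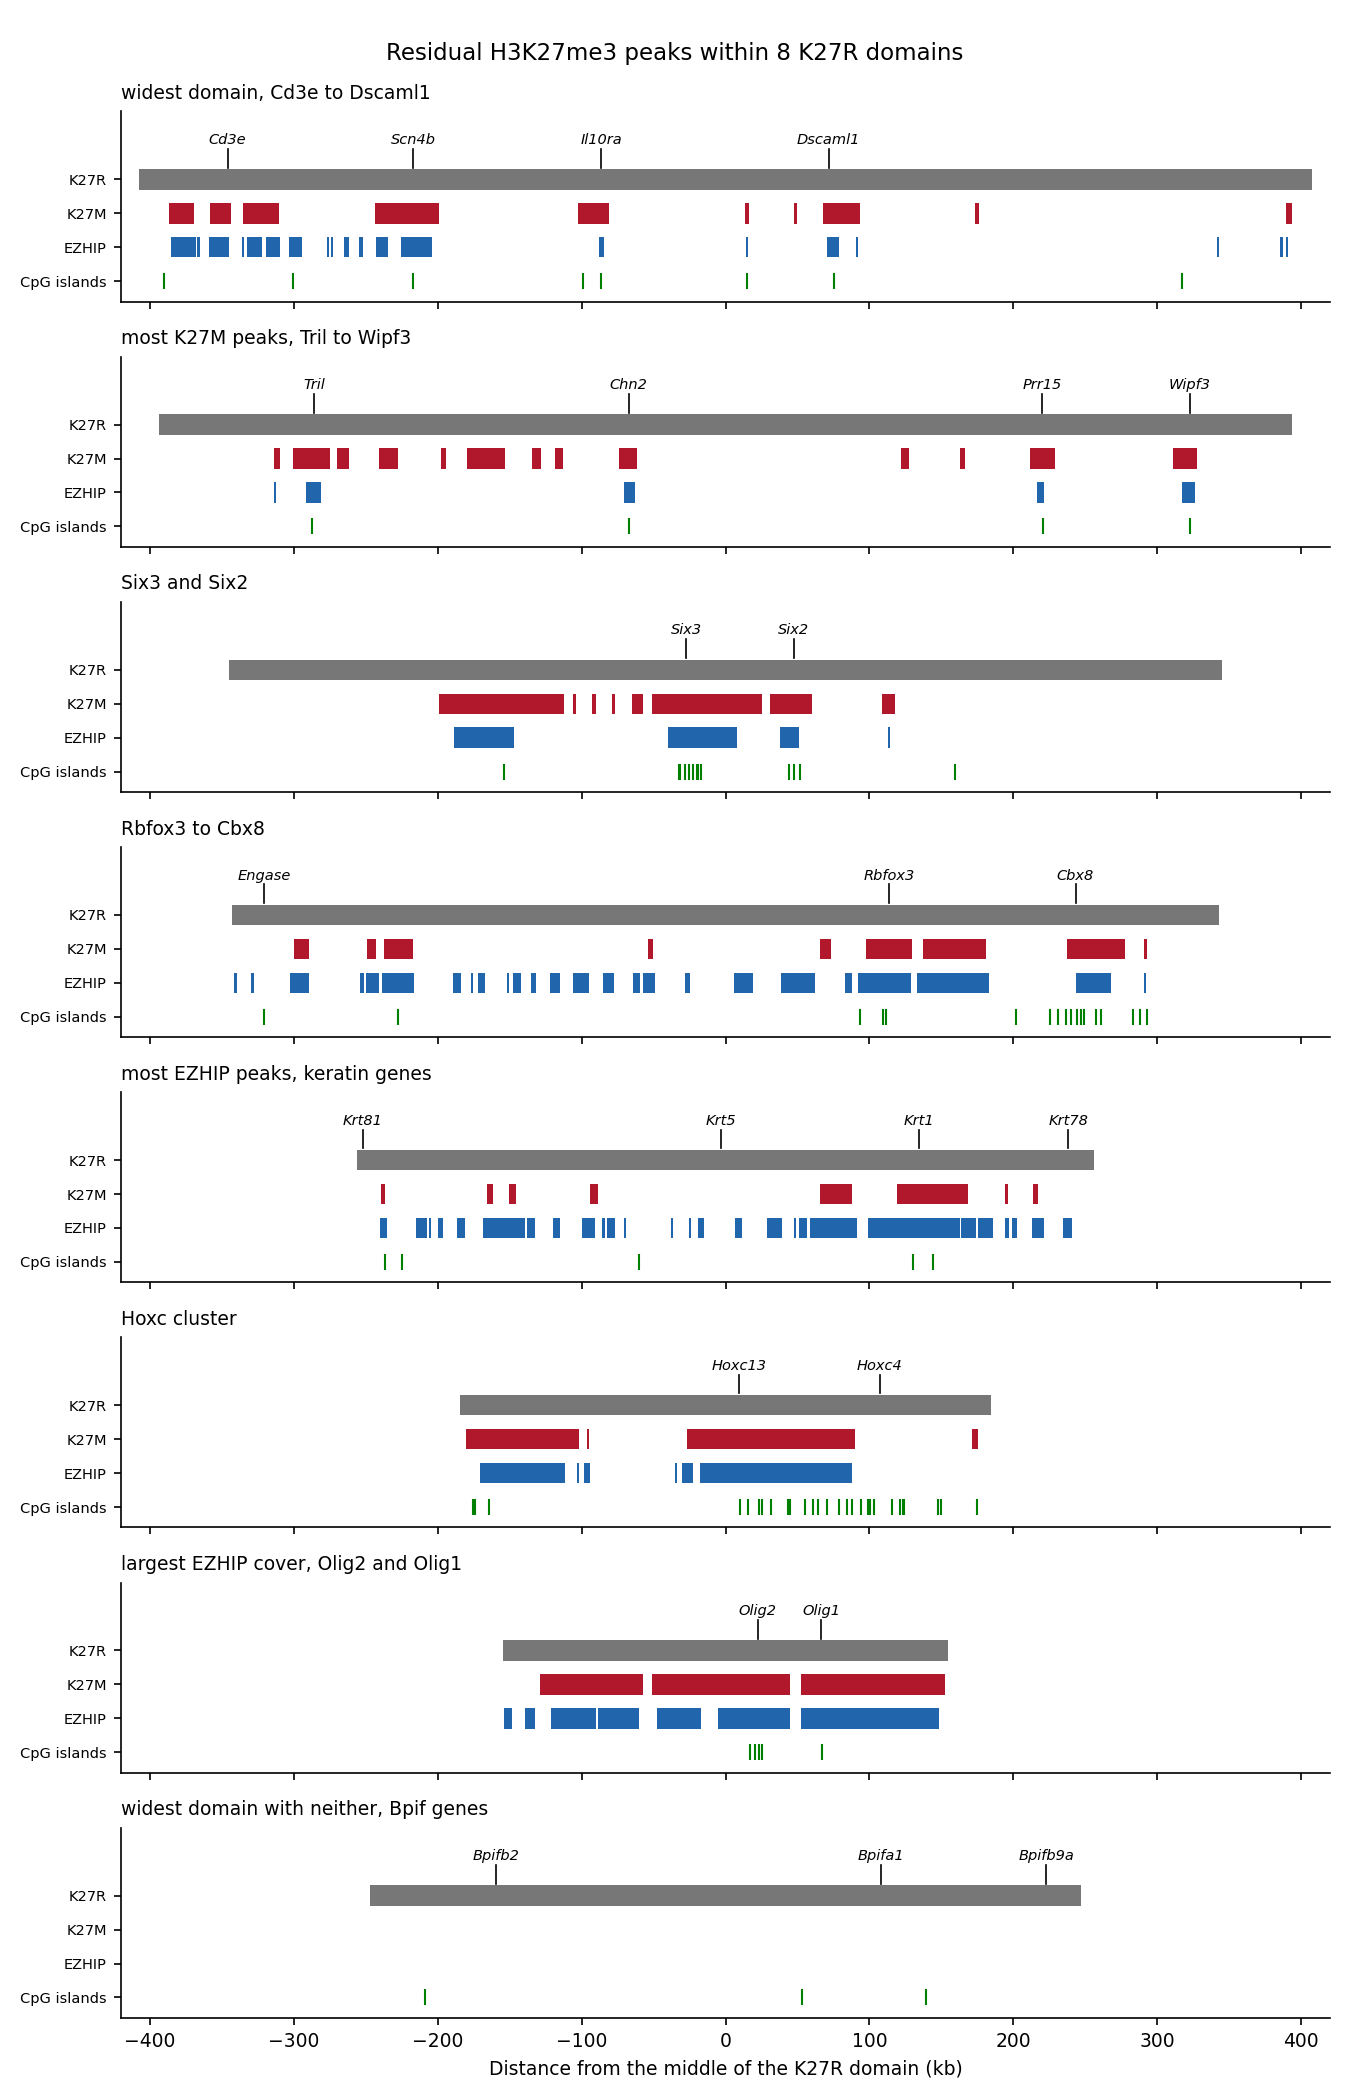
Maps of 8 K27R domains to scale, with the distance from the middle of the domain in kb (x axis). Grey is the K27R domain, red the K27M peaks, blue the EZHIP peaks, green ticks CpG islands and black ticks named gene starts. In the upper maps residual peaks lie at islands and also away from them. They fill most of the Olig2 and Olig1 domain and are missing from the domain of Bpif genes.

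At the other end, a few domains were mostly covered in both lists. The domain of Dmbx1, Kncn and Faah (chr4:115545601-115701200, 155.6 kb) kept a single K27M peak over 94.7%, while 6 EZHIP peaks covered 61.3%. Likewise the domain of Barhl1 (chr2:28750601-28914600, 164 kb) kept 1 K27M peak over 92.3% and 7 EZHIP peaks over 66.7%. EZHIP cover was highest at Olig2 and Olig1, factors of the oligodendrocyte lineage (chr16:91048601-91358400, 309.8 kb), with 80.5% in 7 peaks beside 86.4% in 3 K27M peaks. Tlx1 and Lbx1 followed (chr19:45137001-45437600, 300.6 kb) with 78.4% for EZHIP and 77.6% for K27M. Zswim5 came next (chr4:116501801-116656600, 154.8 kb) with 75.5% for EZHIP and 55.3% for K27M. Cover was thus over 50% in both lists in each of these 5 domains. The H2-T domain (chr17:36158401-36391000, 232.6 kb), with 88.5% and 71.7%, holds near-identical copies of class I histocompatibility genes and is uncertain for that reason. A domain at C130026I21Rik (chr1:85231201-85343600, 112.4 kb) held 5 K27M peaks over 77.0% and 0 EZHIP peaks, and 1 piece after joining.

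Other wide domains had no residual peak. The widest of the 338, chr2:153613401-154107600 (494.2 kb), held Sun5 and 12 genes of the Bpif family, secreted proteins of the airway and mouth such as Bpifa1 and Bpifb1, and 3 islands. The domain chr14:62512601-62939600 (427 kb) held Dleu7 and Rnaseh2b and 2 islands. No protein-coding gene start lay in chr13:47374201-47795200 (421 kb). Mamdc2 lay in chr19:23353201-23755800 (402.6 kb) and Ufm1 in chr3:53534001-53925600 (391.6 kb), which held 3 islands. Among those with a protein-coding gene start, the next widest was chr14:23141601-23512200 (370.6 kb), which held Gm5670 and no island. Absence from both lists was therefore not limited to domains near the width threshold or to those without an island.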

How the data were processed

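H3K27me3 ChIP-Seq libraries of MEFs were grouped by sample title. By the study's methods and the submitters' processing notes, reads were aligned with Bowtie 1.0.0 to mm9, with dm6 as a second genome for scaling, and broad peaks were called with MOSAiCS-HMM on each library. The methods give a maximum gap of 10 kb for these calls, yet gaps between neighbours in a domain were under 10 kb in 267 of 1106 cases in the K27M list and 1132 of 2333 in the EZHIP list. Whether the lists used here come from that run is not given in the sources used here. The deposited lists give the chromosome, start and end of each peak, on a grid of 200 bp, and no counts, so they were used as positions and coordinates are printed from 1. A peak was counted for a domain when they shared at least 1 bp.

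CpG islands were found in the NCBIM37 (mm9) sequence by scoring 17 for each CG and -1 for other bases, and a segment was kept if it reached 200 bp, 50% G+C and a ratio of observed to expected CG over 0.6, giving 27075 islands with repeats unmasked. Genes are from GENCODE M1, of the same build, and a gene was placed by its 5′ end. Shares have exact Clopper-Pearson and medians order-statistic 95% intervals. No p-value was computed, since each group had 1 library. Interval tools and the island finder were tested on simulated data. Python 3.11.15, numpy 2.4.6, pandas 2.3.3, scipy 1.17.1 and numba 0.67.0 were used.

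The domains, gene lists and rules were chosen with earlier results of these data known. Named domains were the widest, those with the most peaks, the largest cover or the largest surplus of either kind, the widest without peaks, those at the width threshold and those with a Hox cluster, and up to 6 genes of a domain or list were named, except where whole clusters or exceptions are spelled out. That windows avoid UTRs was added to the rule for windows, and 1 window and some genes that the rules select are not reported here. Alternatives were a wider threshold, joining of K27R regions or of residual peaks, narrower residual peaks left out, 50% overlap, larger islands and other definitions of a gene. Chromosome 15 was left out as an alternative chosen after seeing the data.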

Additional observations from a re-analysis of the deposited data

How the results depend on the processing

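Of 69 alternative values, 45 stayed within the counting interval or, for numbers of domains and genes, near the reported number, and 24 did not. A minimum width of 150 kb left 773 domains, with a K27M peak in 72.2%, an EZHIP peak in 80.5%, both in 69.5%, more EZHIP than K27M peaks in 63.1% of those holding either (57.7% as reported), a median of 3 EZHIP peaks and an island in 28.5% of EZHIP peaks. Counting only residual peaks of at least 5 kb gave a K27M peak in 53.7% of domains, an EZHIP peak in 52.7%, both in 46.3%, more EZHIP peaks in 36.5%, and median cover of 11.2% for K27M and 8.89% for EZHIP, so that EZHIP no longer marked more domains than K27M. At 2 kb, an EZHIP peak remained in 66.3% and EZHIP peaks were more numerous in 51.4%. Joining residual peaks at 10 kb, which also lowers the number of peaks by construction, gave more EZHIP peaks in 41.6% of domains holding either and 33.6% of those holding both (an alternative chosen after seeing the data), an island in 56.4% of K27M and 43.4% of EZHIP peaks, and EZHIP cover of 8.23%. Islands of at least 500 bp lay in 39.3% of K27M and 23.3% of EZHIP peaks. Counting any overlap of the gene body placed 41.4% of genes in K27M and 43.2% in EZHIP peaks. Leaving out chromosome 15, chosen after seeing the data, gave a K27M peak in 63.6%, an EZHIP peak in 70.0% and more EZHIP peaks in 56.4%, within the counting intervals.

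Limits of these data are that each list is 1 library, that depth is unknown and that peaks carry no height. Expressed protein, library and calling of peaks cannot be told apart in the differences between the lists. With 1 library per group, none was left out.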
